A study of Sus scrofa with 6 samples.

Results

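Low-depth notches were 1 kb windows of nearly unrecovered DNA that lay between well recovered windows in porcine skeletal muscle. A window counted as a notch when its scaled fragment count, averaged over 6 libraries, was above 0 and at most 2, while the second window upstream and the second window downstream both averaged 20 or more. These flanks lay 2 kb away. The rule was met by 4249 of the 2136598 windows of chromosomes 1 to 18. Windows with both flanks at 20 or more numbered 277711, or 13.0% of all windows, and notches made up 1.53% of them. Windows with a mean above 0 and at most 2 numbered 252644 whatever their flanks, and 1.68% of these were notches.

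Longissimus dorsi muscle of female Jinhua pigs, a Chinese breed, was profiled by MeDIP-seq at 2 ages to ask how methylation differs with age. The MA (middle-aged) group held 3 pigs of 7 years and the Young group held 3 pigs of 0.5 years, with 1 library per pig and no treatment. Whole muscle was used, so a mixture of muscle fibres and other cells gave the DNA. Libraries of the MA pigs held 38395078 to 44341673 fragments and those of the Young pigs 34801285 to 43411846. Each count was scaled to the total of its library, and a scaled fragment is worth about 1 deposited fragment.

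In MeDIP-seq an antibody against methylated cytosine pulls down sheared DNA, so recovery of a place rises with its methylation and with the number of CpG sites it holds. Most CpG sites of a mammalian genome are methylated, and the well known exceptions are CpG islands, which often lie at promoters and stay largely unmethylated. A place can also yield few fragments because it has almost no CpG sites, because reads cannot be placed uniquely there, or because the assembly holds a gap. These kinds of place were not told apart here, since the sequence of Sscrofa9.2, the build of the coordinates, was not used.

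Notches were the low end of a continuous range. Among the flanked windows, 584 held no fragment in any library, 1296 averaged above 0 and at most 1, and 2953 averaged above 1 and at most 2. The next steps of 1 held 4896, 5643 and 5839 windows. The plot of flanked windows by depth showed a rising slope at the ceiling of 2 and no gap there. The windows nearest to the ceiling showed how narrow the choice was. The notch on chromosome 8, 79020001 to 79021000, averaged 2.00 with 2, 1 and 2 fragments in MA libraries 1 to 3 and 2, 4 and 1 in Young libraries 1 to 3. The flanked window on chromosome 17, 47125001 to 47126000, missed the rule with a mean of 2.00 and with 3, 1, 1, 1, 5 and 1 fragments in the same order. A second notch just inside, on chromosome 1 at 170893001 to 170894000, averaged 2.00, as did the window just outside on chromosome 8 at 60586001 to 60587000. The 44509 flanked windows above 2 and at most 10 were used for comparison.

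**Figure D1:**
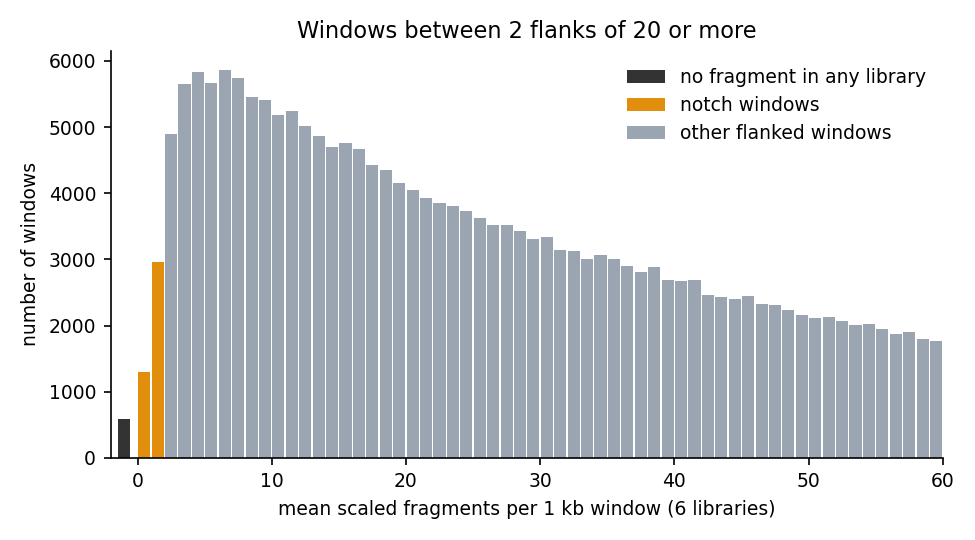
Number of 1 kb windows (vertical axis) by mean scaled fragments over 6 libraries (horizontal axis, steps of 1, shown up to 60) among the windows whose flanks 2 kb away both averaged 20 or more. The 4249 notch windows (orange) and the 584 windows without any fragment (black) form the low end of a distribution that rises without a gap from 1296 to 2953 to 4896 windows.

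Most notches lay between moderately recovered flanks. The mean over notches was 1.27 scaled fragments and the median 1.37, beside a median of 36.2 in the flanks and 31.7 in the flanked windows as a whole. The lower of the flanks had a median of 28.1. Among windows whose lower flank averaged 20 to 30, 2.08% were notches (2432 windows). The share was 1.42% at 30 to 50 (1410 windows), 0.704% at 50 to 100 (383 windows) and 0.342% at 100 or more (24 windows). These values used the same depths as the rule and are given as a description.

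The edges of the trough, averaged over notches, lay in the windows between notch and flank. The rule did not use the depth of these windows, but its limits on either side place the averaged edges there. The median of these adjacent windows was 9.90. Both adjacent windows averaged 20 or more at 479 notches (11.3%). One of them did at 1610 notches (37.9%) and neither did at 2160 (50.8%). An adjacent window was itself at 2 or below at 844 notches, and both were at 81.

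At the scale of 50 bp bins, depth was the number of fragments over a position and not the number per window. A depth of 2 is therefore a looser limit than the ceiling of the rule. The span in which the mean scaled depth stayed below 2 had a median of 1950 bp. Its interquartile range was 1500 to 2450 bp and its extremes were 800 and 4100 bp. A span of 2000 bp or more was found at 2110 notches (49.7%), and a span under 1000 bp at 92 (2.17%). The spacing of the flanks bounds this length, so the span describes the windows chosen and is no estimate for troughs in general.

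Averaged over notches, depth fell from the flanks to the centre in the same way in each library. In the central 200 bp the mean scaled depth was 0.303, 0.204 and 0.237 for MA libraries 1 to 3 and 0.331, 0.25 and 0.355 for Young libraries 1 to 3. Between 1.5 and 2.5 kb from the centre it was 11.5, 11.04 and 10.8 for MA libraries 1 to 3 and 11.5, 12.05 and 11.4 for Young libraries 1 to 3. The width at 50% of that depth was 2409, 2411 and 2402 bp in the MA libraries. It was 2399, 2427 and 2392 bp in the Young libraries, so the groups overlapped and the means differed by 1.45 bp (exact permutation test, two-sided, p = 0.9). With 3 libraries against 3 this test cannot give a p below 0.1. The rule also bounds this width, through its limits at the centre and 2 kb away. The comparison therefore cannot show that widths were alike in both ages. The profile left out 5 notches, 4 that had a window averaging above 1000 within 5 kb and 1 within 6 windows of a chromosome end.

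**Figure D2:**
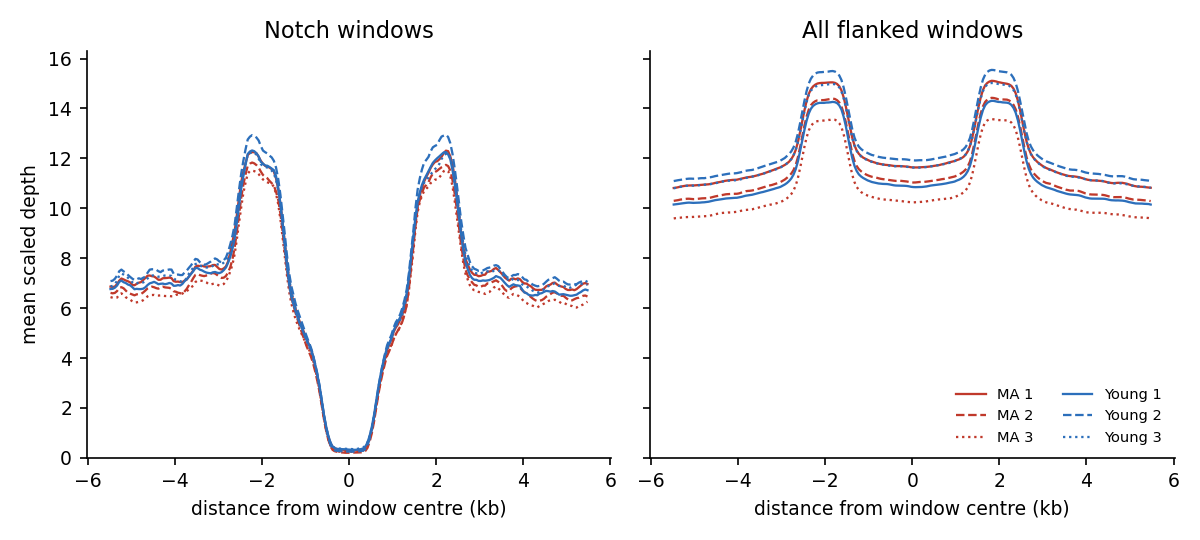
Mean scaled depth (fragments over a position, vertical axis) against distance from the window centre in kb (horizontal axis) for 4244 notch windows and for 277314 flanked windows, 1 line per library (red, MA; blue, Young). All 6 lines fell to between 0.204 and 0.355 in the central 200 bp of the notches, and the shoulders near 2 kb in both panels come from the rule.

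Beyond the flanks, notches lay in DNA that was recovered less than around flanked windows in general but more than the genome as a whole. At 3 to 5 kb the mean was 29.4, 29.2 and 27.4 scaled fragments per window for MA libraries 1 to 3 and 28.3, 29.2 and 29.6 for Young libraries 1 to 3. Around all flanked windows it ranged from 40.8 to 44.5 over the 6 libraries, and a window of the genome averaged 17.7, empty windows included. The notch surroundings were between these levels in 6 of 6 libraries. The same libraries chose the windows by the depth of their flanks, so this comparison is descriptive. At 6 to 10 kb they still held 25.1 to 27.1 scaled fragments per window.

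A base that no fragment of any library covered was common inside notches. No such base was found at 587 notches (13.8%). The longest uncovered stretch inside or touching a notch had a median of 186 bp, with an interquartile range of 46 to 506 bp. It reached 500 bp at 1076 notches (25.3%) and 1000 bp at 300 (7.06%). Flanked windows averaging above 2 and at most 10 had a median of 0 bp, 73.8% had no uncovered base, and 1.63% had a stretch of 500 bp or more. Uncovered stretches follow from low depth, which chose the notches, so this contrast is descriptive. No single length stood out, since the most frequent length, 44 bp, occurred at 20 notches.

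**Figure D3:**
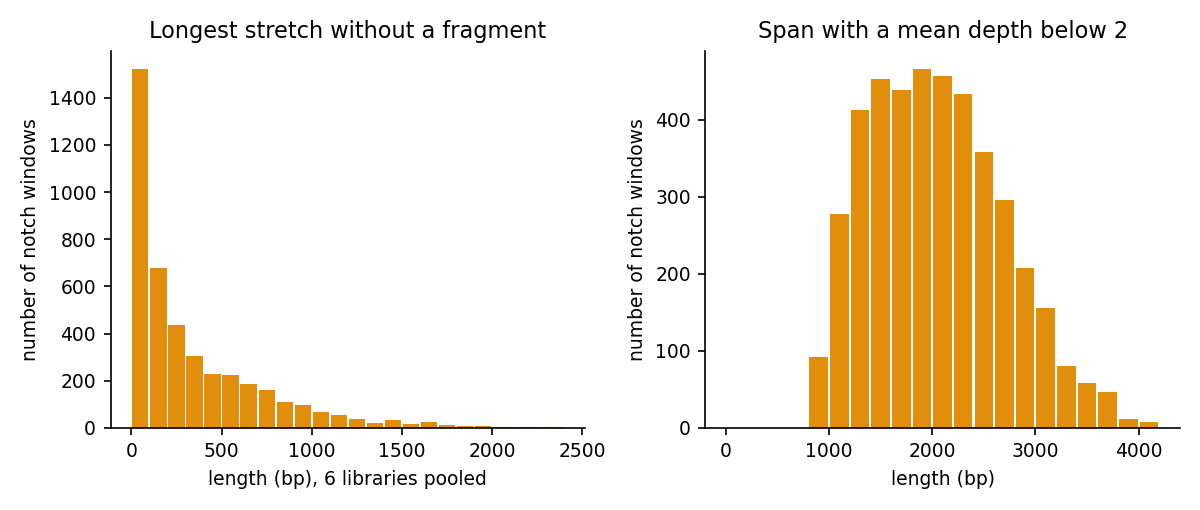
Number of notch windows (vertical axes) by the longest stretch that no fragment of the 6 libraries covered (left, bp, bins of 100). The right panel shows the span with a mean scaled depth below 2 fragments over a position (bp, bins of 200). Uncovered stretches were mostly short, with a median of 186 bp, whereas low-depth spans centred on a median of 1950 bp.

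The longest uncovered stretches exceeded the window itself. On chromosome 12 a stretch of 2379 bp ran from 38428172 to 38430550 through the notch at 38428001 to 38429000, in which MA library 1 and Young library 1 each held 1 fragment and the remaining 4 libraries none. On chromosome 4 a stretch of 2351 bp ran from 129602429 to 129604779 into the notch at 129604001 to 129605000, where Young library 3 held 2 fragments and no other library held any. A stretch of 2285 bp on chromosome 12 ran from 18227187 to 18229471. The notch there, at 18227001 to 18228000, held 2, 2 and 1 fragments from MA pigs and 4, 1 and 0 from Young pigs, all of them before the stretch began. On chromosome 16 a stretch of 2253 bp ran from 76137587 to 76139839, and the notch at 76139001 to 76140000 held 1 fragment, in Young library 1.

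The deepest surroundings belonged to a handful of notches. On chromosome 2, at 86653001 to 86654000, the flanks averaged 5499 and 2108 scaled fragments, and the notch held 1, 1 and 4 fragments from MA pigs and 3, 0 and 2 from Young pigs. On chromosome 12, at 55752001 to 55753000, flanks of 1184 and 984 surrounded a notch with 1, 3, 0, 3, 0 and 2 fragments in the same order. On chromosome 6, at 5182001 to 5183000, flanks of 501 and 379 surrounded a notch with 1, 2, 1, 0, 2 and 5 fragments. On chromosome 3, at 19815001 to 19816000, flanks of 252 and 801 surrounded a notch in which MA library 2 held 1 fragment and the other libraries none. In all 4 notches the libraries of both ages had few fragments or none, which the ceiling of the rule requires at any flank depth. Windows averaging above 1000 numbered 121 in the genome, and 4 notches had such a window within 5 kb.

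Adjoining notches formed 68 pairs. In the pair with the deepest flanks, on chromosome 17 from 52878001 to 52880000, the first window held 1 fragment in MA library 3 and 1 in Young library 3, and the next held 1 fragment in each library except Young library 1, which held 2, and Young library 3, which held none. The pair on chromosome 5 from 17882001 to 17884000 held 3 fragments in the first window, 1 each in MA library 3, Young library 2 and Young library 3. Its next window held 1, in MA library 2. The pair on chromosome 3 from 34012001 to 34014000 held 2 fragments of MA library 2 in the first window, and 1 of MA library 2 and 2 of Young library 1 in the next. In each of these pairs the lowest of the windows 2 kb from either notch averaged 47.8 or more.

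Along chromosomes, notches followed the flanked windows only loosely. Counted per 1000 flanked windows, they ranged from 8.76 on chromosome 10, 9.83 on chromosome 18 and 10.9 on chromosome 12 to 21.8 on chromosome 15, 23.4 on chromosome 1 and 24.1 on chromosome 13. The chromosomes with the most notches per flanked window were those with the lowest mean depth, at 12.8 scaled fragments per window on chromosome 1, 12.9 on chromosome 13 and 13.0 on chromosome 15. The rule sets fixed limits on these same depths, so this relation is descriptive. Per Mb of sequence the order changed, from 1.49 on chromosome 16 to 3.15 on chromosome 12. The X chromosome, to which the rule was not extended, would have given 165 notches among 12510 flanked windows, or 13.2 per 1000 beside 15.3 for chromosomes 1 to 18.

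**Figure D4:**
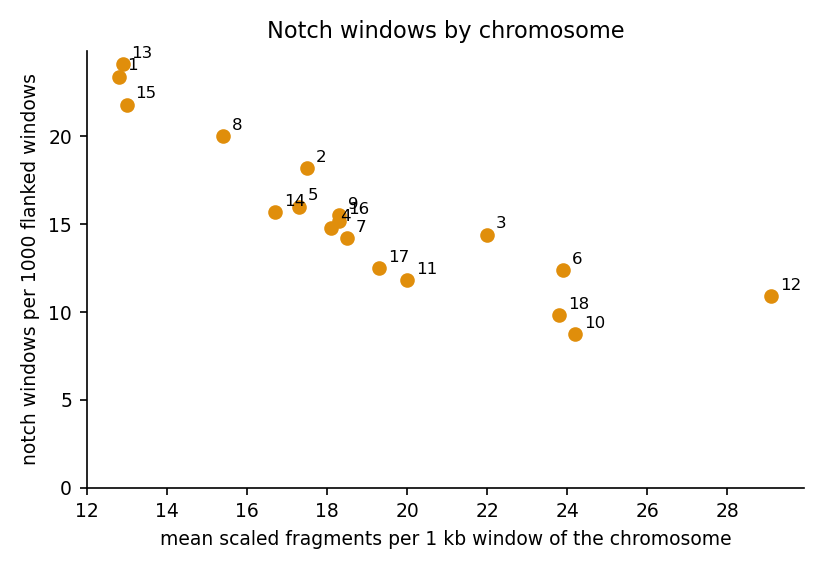
Notch windows per 1000 flanked windows (vertical axis) against the mean scaled fragments per 1 kb window (horizontal axis, starting at 12), 1 point per chromosome with its number. Chromosomes 1, 13 and 15, with means of 12.8 to 13.0, had 21.8 to 24.1 notches per 1000 flanked windows, and chromosomes 10, 12 and 18, with means of 23.8 to 29.1, had 8.76 to 10.9. Both axes rest on the same depths.

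Notches were fewer near chromosome ends than the flanked windows were. The outer 5 Mb of the chromosomes held 538 notches, or 12.7%, beside 22.2% of flanked windows and 8.42% of all windows. The fixed limits of the rule on depth apply here too, so this contrast is descriptive. The median distance from one notch to the nearest other was 126 kb, and 401 notches (9.44%) lay within 10 kb of another. Among 2146 windows of 1 Mb, 484 held no notch and the median was 2. The densest by count were 3 windows of chromosome 3, at 16000001 to 17000000, 35000001 to 36000000 and 36000001 to 37000000. They held 14 notches each, among 349, 526 and 445 flanked windows. The highest counts elsewhere were 12 among 358 flanked windows on chromosome 1 at 284000001 to 285000000 and 11 among 390 on chromosome 12 at 49000001 to 50000000. The first Mb of chromosome 2 followed with 10 among 537.

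Notches recurred in libraries that had no part in choosing them. When windows were chosen on 5 libraries and read in the one left out, the window held 4.04%, 2.97% and 3.45% of its flank mean in MA libraries 1 to 3. It held 4.33%, 3.21% and 5.05% in Young libraries 1 to 3. The mean was 3.84% ± 0.783 (SD, n = 6), beside 78.7% ± 0.74 for all flanked windows read in the same way. The left-out library held at most 2 fragments in 73.7% ± 8.80 of the chosen windows and in 3.90% ± 0.792 of all flanked windows. Chosen on the 3 libraries of the other age, the windows held 4.62% ± 0.864 of their flank mean, and 67.3% ± 8.13 of them had at most 2 fragments. The low depth was shared between pigs and between ages. In each library these values were above the values with all 6 libraries, which ranged from 2.16% to 3.43%.

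Per library, 577 notches (13.6%) held a fragment in all 6 libraries, 1405 in 5, 1059 in 4, 579 in 3, 346 in 2 and 283 in a single library. In 1554 notches (36.6%) no library held more than 2 fragments. The flanks were present in nearly all pigs. Both flanks reached 10 scaled fragments in every library at 4048 notches (95.3%) and averaged 20 in both ages at 3486 (82.0%). A flank without any fragment in at least 1 library was found at 12 notches, and at none was a flank empty in all 3 libraries of an age. The rule chose the flanks by their mean over these same 6 libraries, so these flank counts are descriptive.

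Few windows were notches in one age and well recovered in the other. The rule applied to the Young libraries alone gave 4074 windows, of which 2528 (62.1%) averaged at most 2 in the MA libraries, 6 averaged above 10 and 1 averaged 20 or more. Applied to the MA libraries alone it gave 5250 windows, of which 2481 (47.3%) averaged at most 2 in the Young libraries, 7 averaged above 10 and 3 averaged 20 or more. Flanked windows numbered 263403 on the Young libraries and 289051 on the MA libraries. Among them the share at or below 2 in the other age was 2.3% and 1.78%. The windows at 20 or more were picked for their difference, so their values carry no test, and none of them is among the 4249.

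The notch of the Young libraries that was filled in the MA libraries lay on chromosome 18 at 2566001 to 2567000, with 37, 14 and 41 fragments in MA and 1, 0 and 1 in Young. Its upstream flank went the other way, averaging 10.3 in MA and 31.4 in Young, and its downstream flank averaged 119 and 112. On chromosome 5 an adjoining pair was filled in the Young libraries. The window at 8392001 to 8393000 held 1, 1 and 0 fragments in MA and 32, 27 and 23 in Young. The window at 8393001 to 8394000 held 3, 0 and 2 fragments in MA and 82, 82 and 47 in Young. Flanks of this pair ranged from 26.8 to 54.1 in MA and from 26.6 to 110 in Young. On chromosome 3 the window at 631001 to 632000 held 2, 0 and 0 fragments in MA and 19, 27 and 24 in Young, with flanks of 45.6 and 37.1 in MA and of 72.9 and 58.6 in Young. Within each of these 4 windows the groups did not overlap. From fragment positions alone, a sequence variant that differs between the pigs and a difference in methylation cannot be told apart.

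The depth of the 4249 notches varied between pigs of an age, and it did not separate the ages. The mean per notch was 1.38, 0.986 and 1.14 scaled fragments in MA libraries 1 to 3 and 1.46, 1.09 and 1.55 in Young libraries 1 to 3. The lowest libraries were MA 2 and Young 2, the highest were Young 3 and Young 1, and the groups overlapped. The group means were 1.17 ± 0.197 in MA and 1.37 ± 0.244 in Young (SD, n = 3 each), and the log2 ratio of MA to Young of the summed fragments was -0.23 (exact permutation test, two-sided, p = 0.3). Flank depth was almost the same in each library, at 45.5, 45.8 and 44.3 in MA and 45.1, 46.2 and 45.4 in Young. Relative to the flanks, notches held 3.03%, 2.16% and 2.57% in MA and 3.23%, 2.37% and 3.43% in Young. The log2 ratio of this share was -0.22 (exact permutation test, two-sided, p = 0.4). The ceiling on the mean over both ages bounds these contrasts, and the test cannot give a p below 0.1. These values therefore cannot show that notch depth was alike in both ages.

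Low windows without such flanks followed the same order of libraries but for the top pair. They averaged 1.02, 0.819 and 0.945 scaled fragments in MA libraries 1 to 3 and 1.15, 0.888 and 1.13 in Young libraries 1 to 3. Their log2 ratio of MA to Young was -0.18 (exact permutation test, two-sided, p = 0.3). Taken relative to these windows, the notch depth had a log2 ratio of -0.05 (exact permutation test, two-sided, p = 0.5). The share of fragments that fell into any low window ranged from 0.549% to 0.769%, again lowest in MA 2 and Young 2. The level of low windows in general thus moved with the notch depth over libraries, and its part in the notch values was not tested.

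**Figure D5:**
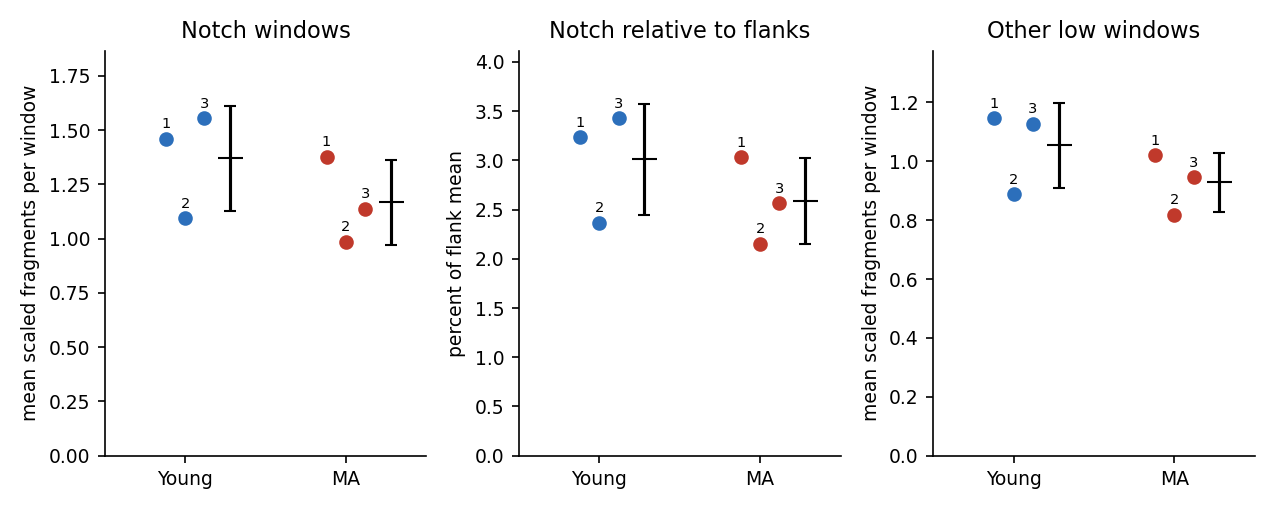
Mean scaled fragments per notch window (left), notch depth as a percent of the flank mean (middle) and mean scaled fragments in low windows without such flanks (right), 1 point per library with its replicate number, and mean ± SD (n = 3) beside them. The groups overlapped in all panels, with replicate 2 the lowest of each age.

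Notches without any fragment made up 23.9%, 40.2% and 35.7% of the 4249 for MA pigs 1 to 3 and 25.0%, 37.2% and 27.6% for Young pigs 1 to 3. A notch held at most 2 fragments in 79.1%, 92.2% and 88.4% of cases for MA pigs 1 to 3 and in 75.9%, 90.8% and 82.8% for Young pigs 1 to 3. Both measures overlapped between ages (exact permutation test, two-sided, p = 0.8 and p = 0.6). The ceiling of the rule bounds these measures as well, so they cannot show that the ages were alike. At this depth a change in a single notch was hardly measurable.

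Window by window, limma on log2(scaled fragments + 1) called 0 of the 4249 notches at an adjusted p of 0.01, beside 0.00796% of the 1897741 windows tested. The ceiling of 2 on the mean over both ages bounds the difference a notch can show. The count of 0 therefore cannot show that notches were alike in both ages. The smallest adjusted p among notches was 0.209. At an unadjusted p under 0.05 stood 251 notches (5.91%), 84 higher in MA and 167 lower, beside 6.53% of all windows. The split over all windows was 57457 higher and 66479 lower. The median log2 difference was -0.12 over notches and -0.02 over all windows. The excess of lower notches rested in part on single libraries. Without MA library 2 the split was 140 higher and 150 lower and the median over notches -0.05, and without MA library 1 it was 87 and 251 with a median of -0.20. Without Young library 2 it was 90 and 258, and without Young library 1 it was 143 and 217. The groups did not overlap at 452 notches, or 10.6%, against 12% of all windows and 8.14% of low windows with any flanks. MA was the higher group at 88 of them (2.07%, against 5.24% of all and 1.84% of low windows) and the lower at 364 (8.57%, against 6.76% and 6.3%).

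The notches with the smallest p values held their fragments in 1 age. On chromosome 15, at 88975001 to 88976000, the Young libraries held 4, 3 and 4 fragments and the MA libraries none (limma, adjusted p = 0.209). On chromosome 18, at 48115001 to 48116000, the MA libraries held 4, 3 and 3 fragments and the Young libraries none (limma, adjusted p = 0.273). The notch on chromosome 3 at 105622001 to 105623000 held 4, 6 and 1 fragments in MA and none in Young (limma, adjusted p = 0.442), and that on chromosome 4 at 99239001 to 99240000 held none in MA and 2, 3 and 2 in Young (limma, adjusted p = 0.454). None of these passed the threshold. Fragments in all MA and no Young libraries were found at 29 notches (0.683%) and the reverse at 28 (0.659%), beside 0.774% and 0.893% of low windows with any flanks. Those with the largest means beyond the notches just named were chromosome 1 at 8331001 to 8332000 with 2, 1 and 5 fragments in MA, chromosome 15 at 127790001 to 127791000 with 2, 1 and 5 in Young, and chromosome 14 at 141621001 to 141622000 with 1, 3 and 3 in Young.

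Beside the notches, 4 of the 16515 windows tested at 1 and 2 kb passed the threshold in limma, all with more fragments in MA, where 0.00422% of all windows were called higher and 0.00374% lower. Of these 4 windows, 2 were flanks that the rule itself used and that averaged 20 or more only through the MA libraries. Another adjoined such a flank, beside a notch that met the rule only through it. The p of these windows is no test and is left out, and the count and its direction support nothing. An unadjusted p under 0.05 was reached by 1353 of the 16515 (8.19%), beside 6.53% of all windows. Over windows averaging at least 10 it was 8.57% beside notches and 7.34% of all. Groups did not overlap in 13.2% of the windows beside notches, in 12% of all windows and in 13.9% of all windows averaging 20 or more.

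A pair of the called windows stood next to each other upstream of the notch on chromosome 9 at 9529001 to 9530000, which averaged 0.879. The window at 9527001 to 9528000 held 90.2, 26.8 and 84.9 scaled fragments in MA and 1.82, 0 and 0 in Young. The window at 9528001 to 9529000 held 35.7, 22.7 and 19.4 in MA and 0 in each Young library. This notch met the rule on the mean of both ages, and its upstream flank was close to empty in the Young pigs and averaged 34.0 over both ages through the MA pigs alone.

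On chromosome 2, the window at 37604001 to 37605000 held 31.3, 22.7 and 28.6 scaled fragments in MA and 0 in each Young library (limma, adjusted p = 5.73e-04). It adjoined the notch at 37605001 to 37606000, which averaged 0.662. On chromosome 5, the window at 12073001 to 12074000 held 34.8, 34.0 and 34.8 in MA and 3.65, 5.22 and 7.97 in Young. It was the downstream flank of the notch 2 kb upstream, at 12071001 to 12072000, which averaged 0.979, and its mean of 20.1 passed the minimum through the MA pigs alone. With TMM factors or a pseudocount of 0.5 limma no longer called it, leaving 3 windows. In all 4 windows the groups did not overlap. Over windows averaging at least 10, a limma fit called 0 of 12527 windows beside notches and 22 of all 909277 windows (0.00242%). With any 1 of the 6 libraries left out, limma called 0 windows beside notches and 0 of all windows. In the fit over windows averaging at least 10, the smallest adjusted p beside notches was that of a chromosome 9 flank the rule used. It is left out too.

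Fragments in notches were shorter than fragments in their flanks. Mean length in notches was 257, 247 and 249 bp in MA libraries 1 to 3 and 258, 266 and 256 bp in Young libraries 1 to 3. In the flanks it was 263, 252 and 253 bp in MA and 264, 271 and 262 bp in Young. The difference was -5.39 ± 0.978 bp (SD, n = 6), with notches shorter in 6 of 6 libraries (exact sign-flip permutation test, two-sided, p = 0.031, the smallest it can give, and 0.0781 after Benjamini-Hochberg adjustment over 5 such tests). The same length was found in low windows without such flanks, where the difference was -0.346 ± 0.68 bp (exact sign-flip permutation test, two-sided, p = 0.281), shorter in notches in 4 of 6 libraries. The shortening did not differ by age beyond the spread, at -5.20 ± 1.34 bp in MA and -5.58 ± 0.692 bp in Young (SD, n = 3 each; exact permutation test, two-sided, p = 0.7).

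Intervals identical to another of their library were rarer in notches. They made up 0.0635% to 0.314% of notch fragments and 1.07% to 1.82% of flank fragments, lower in 6 of 6 libraries by 1.37 ± 0.244 percentage points (SD, n = 6). A repeated interval adds to the depth that chose the notches, so this contrast is descriptive. Notches did not differ from other low windows beyond the spread (difference 0.0075 ± 0.0633 points, exact sign-flip permutation test, p = 0.844). The share of intervals with the most frequent length, 248 bp, was higher in notches than in flanks by 1.24 ± 2.10 points (SD, n = 6, higher in 4 of 6 libraries, exact sign-flip permutation test, p = 0.25).

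Notch fragments gathered at the window edges. Midpoints in the outer 100 bp at either end made up 26.9%, 27.1% and 28.7% of them for MA pigs 1 to 3 and 26.8%, 27.2% and 24.4% for Young pigs 1 to 3. In the flanks this share was 18.1% to 18.3%. The central 200 bp held 16.7% to 17.8% of notch fragments. Depth rises from a notch toward the flanks that the rule required, so this contrast is tied to the choice of windows and is descriptive.

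Genes were named only through the study's list of differentially methylated regions (DMRs), which pairs a position with a gene and its place in the gene. The list was drawn up by the study on these libraries and was held only in part, so no enrichment was computed and no other gene beside a notch was identified. Of the 4249 notches, 79 (1.86%) lay within 5 kb of 1 of 1826 listed positions. No such share is given here for all windows or for flanked windows, so 1.86% cannot be called high or low. The positions near them were listed for 81 genes, each counted once here. The listed place was an intron for 43 genes, a promoter for 21, an exon for 14, exon and promoter for 2, and intron and promoter for 1. The place belongs to the listed position, and the notch itself may lie elsewhere in the gene or outside it. The genes whose notches had the deepest lower flanks follow, with the distance between notch and listed position.

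Listed promoters were near 6 of these notches, 1 of them listed with an exon as well. ATG16L2, a relative of the autophagy protein ATG16L1, had a notch at 741 bp (chromosome 9, 6979001 to 6980000) with 1, 2 and 1 fragments in MA and 5, 1 and 1 in Young, between flanks of 74.1 and 65.2. COPS3, a subunit of the COP9 signalosome, had a notch at 1537 bp (chromosome 12, 56919001 to 56920000) with 1, 0 and 1 fragments in MA and 0, 0 and 1 in Young, between flanks of 58.2 and 69.5. The notch of MAP3K7IP1, also known as TAB1 and an activator of the kinase TAK1, lay 356 bp away (chromosome 5, 5166001 to 5167000) and held 1, 1 and 1 fragments in MA and 2, 0 and 0 in Young. These 3 windows held at most 5 fragments in any pig, and their flanks were at least 48.3.

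CS encodes citrate synthase, the enzyme of the first step of the citric acid cycle. Its notch lay 2249 bp from the listed promoter position (chromosome 5, 20600001 to 20601000) and held 3, 3 and 0 fragments in MA and 0, 2 and 0 in Young. The windows on either side of it averaged 7.62 and 2.60, and the flanks 49.5 and 46.9. CYBASC3, a cytochrome b561 family member, had a notch at 761 bp (chromosome 2, 8448001 to 8449000) with 2, 2 and 0 fragments in MA and 3, 2 and 1 in Young. BCL2L1, which encodes the survival protein BCL-XL, was listed with both exon and promoter, and its notch lay 1268 bp away (chromosome 17, 37348001 to 37349000). It held 1 fragment in MA library 1 and 1 in Young library 1, with flanks of 48.6 and 58.8. The groups overlapped in these 3 windows.

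Listed exons were near the notches of NEURL4, AP1B1 and MRM1. NEURL4, a protein of the centriole, had a notch 3552 bp away (chromosome 12, 49798001 to 49799000) with 1 fragment in MA library 1 and 1 in Young library 3. AP1B1, a subunit of the clathrin adaptor AP-1, had a notch 2835 bp away (chromosome 14, 47038001 to 47039000) with 3, 2 and 1 fragments in MA and 4, 1 and 1 in Young. MRM1, a methyltransferase of mitochondrial ribosomal RNA, had a notch 3988 bp away (chromosome 12, 36260001 to 36261000) with 2, 0 and 1 fragments in MA and none in Young. Their lower flanks averaged 66.7, 65.9 and 48.2.

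Listed introns were near the remaining notches of this group. The notch of INPP5A, an inositol phosphate phosphatase, lay 1650 bp away (chromosome 14, 147411001 to 147412000), held a single fragment, in MA library 1, and stood between flanks of 114 and 66.7. The notch of CHKA and TBX10, a choline kinase and a T-box transcription factor, was shared by both genes at 1145 bp (chromosome 2, 3133001 to 3134000). It also held a single fragment, in MA library 3, between flanks of 46.6 and 112, and included or touched an uncovered stretch of 927 bp. These were the emptiest windows among the named genes.

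RAB11FIP4, an effector of the trafficking protein RAB11, had a notch 1203 bp away (chromosome 12, 41187001 to 41188000) with 1 fragment in MA library 3 and 2 in Young library 3. GK5, a glycerol kinase family member, had a notch 3707 bp away (chromosome 13, 67596001 to 67597000) with 0, 2 and 0 fragments in MA and 2, 0 and 2 in Young. FBF1, a protein of the cilium base, had a notch 4964 bp away (chromosome 12, 3870001 to 3871000) with 2, 2 and 2 fragments in MA and 3, 1 and 2 in Young. None of the 14 notches of these 15 genes held more than 5 fragments in any library. Outside this choice, and picked after its values were seen because the gene is a muscle gene, CASQ1, the calcium store protein calsequestrin of fast fibres, had a notch 4586 bp from a listed exon position (chromosome 4, 93720001 to 93721000), between flanks of at least 34.9 and with a mean of 0.874.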

How the data were processed

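MeDIP-seq was done on longissimus dorsi muscle of 6 pigs, and the labels gave the age and replicate of each library. The authors placed read pairs on Sscrofa9.2 by SOAP2 and state that ambiguous reads and PCR copies were dropped. What they deposited is the position of every fragment (chromosome, start, end), with no count, coverage or normalization. Identical intervals remain in the deposited files and were kept.

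Fragments were placed by midpoint in 1 kb windows and scaled to total fragments, with the mean total as the common size. Positions are given from 1, exact to within 1 bp because the files do not state where counting starts. Ages were compared with limma 3.58.1 in R 4.3.3 (lmFit, eBayes with trend) over the 1897741 windows with a mean above 0, adjusted by Benjamini-Hochberg at a threshold of 0.01. No count model was run. Single values were compared by exact permutation over 20 assignments of libraries, and paired differences by exact sign flips. Python 3.11.15, numpy 2.4.6, pandas 2.3.3 and scipy 1.17.1 were used, with figures drawn in matplotlib 3.10.9. The steps were tested on simulated data.

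The windows and lists were chosen with earlier results of these data known. Named were the 4 notches with the largest lower flank, the 4 longest uncovered stretches, the 3 adjoining pairs with the deepest flanks, the 2 smallest p in each direction, called windows beside notches, up to 3 notches with fragments in 1 age only, the 2 nearest the ceiling on each side, and 15 genes by lower flank. Alternatives covered scaling, placement, repeated intervals, rule limits, filters, pseudocount, threshold, replicate block and leaving out each library. Leaving out notches near windows averaging above 1000 was chosen after seeing the data.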

Additional observations from a re-analysis of the deposited data

How the results depend on the processing

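The number of notches depended on the limits of the rule and little on scaling or placement. It was 1296 with a ceiling of 1, 14788 with a ceiling of 4, 7083 with a flank minimum of 15 and 1817 with one of 30, beside 4249. With TMM factors it was 4237 and with windows shifted by 500 bp 4144. Leaving out a library gave 3990 to 4811. The log2 ratio of MA to Young ranged from -0.38 to -0.11 for the summed fragments and from -0.38 to -0.09 relative to the flanks when a library was left out. Without the 4 notches near a window averaging above 1000 the ratios were -0.23 and -0.22. No direction of these ratios reversed under the alternatives tried. The median log2 difference of all windows, -0.02, turned to 0.01 without MA library 2 and without Young library 1 and to 0.02 over windows averaging at least 10. Beside notches, the unadjusted split of 636 higher and 717 lower turned to 714 and 545 without Young library 1.

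The windows called beside notches by limma numbered 13 at a threshold of 0.05, where 593 of the 1897741 windows tested were called, and 0 over windows averaging at least 10, against 4. It was 3 with TMM factors and with a pseudocount of 0.5. Leaving out any library gave 0 to 0, with 0 calls over all windows too, so a fit of 5 libraries called nothing anywhere. The limma count for notches was 0 under each alternative tried, and a mean of at least 10 leaves no notch to test. The ceiling of the rule bounds the contrast in a notch under each of them, so the constant 0 is no sign of stability. With the replicate number as a block, limma called 0 windows beside notches, 0 notches and 0 windows in all. Same-numbered libraries of the ages deviated with correlations of -0.22, 0.08 and -0.19, so the numbers were not treated as pairs. Fragment length in notches minus flanks stayed between -5.71 and -5.17 bp without a library, with p = 0.0625 in each exact sign-flip permutation test, the smallest that 5 libraries allow.

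Notches hold about 1 fragment per library, so differences within single notches are mostly beyond this depth, and totals over notches rest on 4062 to 6799 fragments per library. CpG density, assembly gaps and gene annotation of the build were not used here.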
